A study of Rattus norvegicus with 15 samples.

Results

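Caloric restriction given before isoproterenol was compared with isoproterenol alone, over the left ventricles of 10 of the 15 rats in the series. All libraries that the labels place in these 2 groups were used. The authors' table listed 714 tRNA-derived small RNAs (tsRNAs), of which 707 had at least 1 CPM (reads scaled to a library total of 1000000) in at least 5 of the 15 libraries and were tested. The other 7 listed tsRNAs did not reach that level.

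The animals were Sprague-Dawley rats, and each library was made from one rat, as the sample titles number them. The isoproterenol group (n = 5) received isoproterenol, a beta-adrenergic agonist used to make the heart ischemic by overdriving it. The restricted group (n = 5) was kept on caloric restriction ahead of the same drug. An untreated control group (n = 5) served here as a reference level. Its libraries also entered the filter, the scaling between libraries, the estimate of the spread and the slope on the log2 library total. The exception was a fit of the compared groups alone. Both compared groups had the drug, and no group was restricted without it, so an action of restriction alone and an action on the response to the drug cannot be told apart. The sources used here give no age, sex, dose or length of restriction. In whole ventricle, fewer cells of a type and less RNA per cell cannot be told apart.

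tsRNAs are cut from transfer RNAs. The tiRNAs arise when a ribonuclease such as angiogenin cuts the anticodon loop, a step known from stressed cells, while the shorter fragments (tRFs) come from either end or the middle of the tRNA. Some tRFs are known to bind Argonaute proteins and some tiRNAs to repress translation. A name gives the class, the amino acid the parent tRNA carries, its anticodon and a serial number, so tRF-Ala-AGC-027 is a fragment of an alanine tRNA. Fragments of one parent can be nearly identical in sequence, and each is uncertain as a single species.

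Library totals ran from 106082 to 514565 reads for isoproterenol rats and from 163818 to 397574 for restricted rats, and the log2 totals differed by less than the spread between rats (exact permutation p = 0.833). The median tsRNA had only 4 to 9 reads in each of the 10 libraries. Isoproterenol replicate 3, the shallowest, was the highest library for 153 of the 707 tsRNAs, and restricted replicate 1, the shallowest of its group, for 136. Isoproterenol replicate 2, also shallow at 127991 reads, was the highest for 66, and isoproterenol replicate 5, the deepest, for 70. Levels in CPM were thus often highest in some libraries with small totals, though not in all. The part of the total in each result was examined only by a fit with the log2 total as a covariate. Median reads varied less than the totals did, and whether reads were capped or collapsed before counting is unknown. Had they been, the CPM, the fold changes and the count tests would not have their usual meaning.

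By limma on log2(CPM + 1), the main test, 0 of 707 tsRNAs (0%) had a Benjamini-Hochberg adjusted p under 0.05, and the smallest adjusted p was 0.204. At an unadjusted p under 0.05 there were 116 tsRNAs (16.4%), of which 78 (11%) were higher and 38 (5.37%) lower in the restricted group. On the recovered reads, edgeR's quasi-likelihood test called 1 of 347 (0.288%) with the authors' totals and 0 of 347 (0%) with TMM scaling, where 82 had an unadjusted p under 0.05. DESeq2 called 34 of 477 (7.13%), and limma with the log2 library total as a covariate called 43 of 707 (6.08%).

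The balance of higher against lower depended on the scaling between libraries. Over all tested tsRNAs the log2 fold change had a median of 0.44 on the deposited CPM, with 468 of 707 (66.2%) above 0. Median-of-ratios scaling moved that median to 0.10, and then 46 tsRNAs were higher and 78 lower at an unadjusted p under 0.05. Scaling to the sum of the listed tsRNAs moved it to 0.69, with 101 higher and 17 lower. Fold changes below are by limma on the deposited CPM, unless another fit or scaling is named, and are to be read against the 0.44. The median was 0.049 for DESeq2, which uses its own size factors, and 0.15 for edgeR with TMM. It was 0.38 for edgeR with the authors' totals and 0.50 for limma with the log2 total as a covariate. At this depth and spread the 95% interval of a typical fold change reached 1.52 log2 units to either side. For 0 tsRNAs did the interval lie within 1 log2 unit of no difference, and for 223 (31.5%) it lay within 2.

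**Figure D1:**
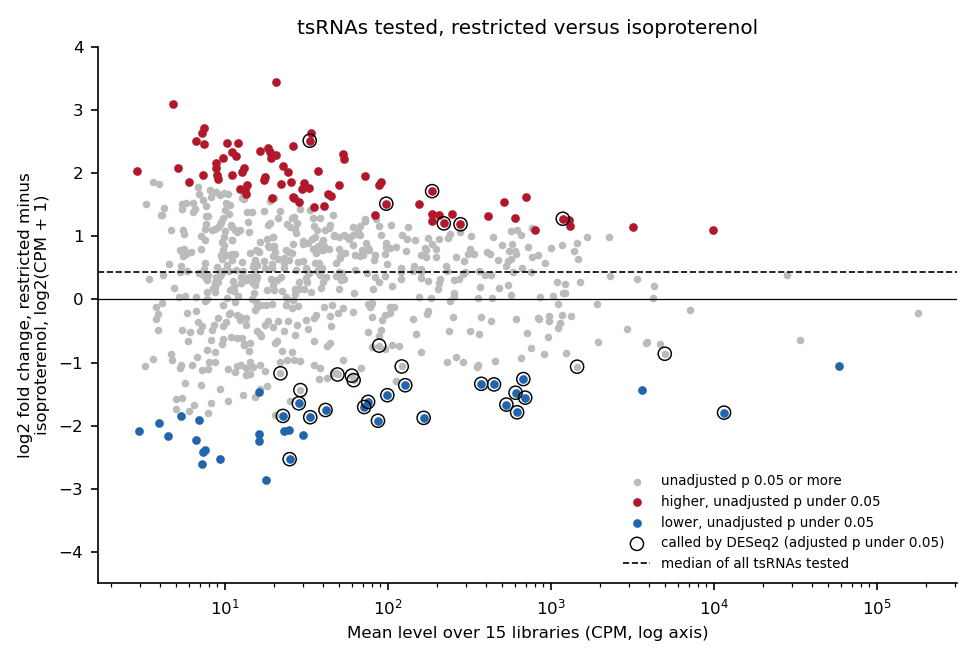
Each of the 707 tested tsRNAs is plotted by its mean level over the 15 libraries (CPM, log axis) and its log2 fold change, restricted minus isoproterenol, on log2(CPM + 1). The dashed line is the median of 0.44; most of the rings, the 34 DESeq2 calls, lie below 0 (28 lower, 6 higher).

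Among the tsRNAs with the smallest p on the higher side, alanine fragments stood first. tRF-Ala-AGC-027 was at 11.1, 15.6, 9.43, 9.13 and 15.5 CPM in isoproterenol replicates 1 to 5 and at 110, 50.3, 67.6, 54.3 and 98.9 CPM in restricted replicates 1 to 5. All 5 restricted rats lay above all 5 isoproterenol rats. Its log2 fold change was 2.52 (SE 0.68, 95% interval 1.14 to 3.89, limma adjusted p = 0.204). DESeq2 gave 1.99 (SE 0.51, adjusted p = 0.00719) and the fit with the log2 total 2.55 (SE 0.52, limma adjusted p = 0.0204), so both called it higher. In all, 17 isoproterenol reads and 90 restricted reads lay behind it.

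A fragment of another alanine parent had the largest fold change of all. tRF-Ala-TGC-011 was at 22.3, 0, 9.43, 0 and 0 CPM in isoproterenol and at 24.4, 7.55, 31.5, 141 and 36 CPM in restricted ventricles. The groups overlapped, since 2 isoproterenol rats lay above the lowest restricted rat, and a single restricted rat stood far above the rest. In all, 7 isoproterenol reads and 61 restricted reads lay behind tRF-Ala-TGC-011. By limma its log2 fold change was 3.44 (SE 0.96, adjusted p = 0.204). DESeq2 gave 2.62 (SE 1.19, adjusted p = 0.131) and did not call it, while the fit with the log2 total did (limma adjusted p = 0.0405). tRF-Ala-AGC-036 had 0 reads in all 5 isoproterenol libraries and 16 in the restricted group, at 12.2, 5.03, 0, 29 and 18 CPM. Against a floor of 3 reads over the isoproterenol group, its pooled level was at least 5.6-fold higher in the restricted group.

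Phenylalanine fragments were also among the first. tRF-Phe-GAA-020 was at 11.1, 0, 0, 6.09 and 5.83 CPM in isoproterenol and at 12.2, 27.7, 22.5, 18.1 and 13.5 CPM in restricted rats. tRF-Phe-GAA-018 was at 18.6, 7.81, 9.43, 18.3 and 1.94 CPM in isoproterenol and at 48.8, 30.2, 58.5, 36.2 and 45 CPM in restricted rats. For both, all restricted rats lay above all isoproterenol rats, closely for tRF-Phe-GAA-020 and clearly for tRF-Phe-GAA-018. The 12.2 CPM of restricted replicate 1 for tRF-Phe-GAA-020 were 2 reads, and the 11.1 CPM of isoproterenol replicate 1 were 3 reads. The order of these libraries thus came from their totals. The fragments rested on 8 and 14 isoproterenol reads and on 26 and 53 restricted reads. The log2 fold changes were 2.41 (SE 0.77) and 2.12 (SE 0.72), each at a limma adjusted p of 0.204. DESeq2 gave 1.28 (SE 0.86, adjusted p = 0.341) and 1.45 (SE 0.57, adjusted p = 0.0843) and called neither. The fit with the log2 total called both, each at a limma adjusted p of 0.0291.

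Leucine fragments with the anticodon TAG rested on more reads. tRF-Leu-TAG-014, with 134 and 452 reads, was at 89.1, 180, 339, 30.4 and 79.7 CPM in isoproterenol and at 525, 309, 216, 409 and 369 CPM in restricted rats. The groups overlapped through isoproterenol replicate 3. The fitted log2 fold change was 1.72 (SE 0.60, limma adjusted p = 0.204), and DESeq2 gave 1.27 (SE 0.36, adjusted p = 0.00934). tRF-Leu-TAG-003 was at 794, 1156, 1951, 533 and 484 CPM in isoproterenol and at 2985, 1469, 1482, 2222 and 2698 CPM in restricted rats, again with only isoproterenol replicate 3 inside the restricted range. On the log2 scale the difference was 1.28 (SE 0.53, limma adjusted p = 0.243), and DESeq2 gave 0.93 (SE 0.22, adjusted p = 0.00661).

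The remaining 6 of the 12 higher tsRNAs with the smallest p also rested on few reads, as did the phenylalanine fragments above. They were tRF-Gly-TCC-018, tRF-Met-CAT-052, tRF-His-GTG-028, tRF-His-GTG-032, tiRNA-Tyr-GTA-003 and tRF-Asp-GTC-059, with log2 fold changes from 2.23 to 2.71. tRF-Gly-TCC-018 had 2 isoproterenol reads and 17 restricted reads, a pooled ratio of 8.93 (exact 95% counting interval 2.12 to 79.7). tRF-Asp-GTC-059 had 3 and 18 reads, a ratio of 6.3 (1.84 to 33.4). tiRNA-His-GTG-004, from a histidine tRNA, had 3 and 23 reads, a ratio of 8.05 (2.43 to 41.9). These intervals cover counting error only and not the spread between rats.

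An abundant glycine fragment led those that were lower. tRF-Gly-GCC-014 was at 18597, 5938, 26451, 52196 and 26698 CPM in isoproterenol and at 2491, 6550, 13385, 7415 and 5010 CPM in restricted rats. Isoproterenol replicate 2 lay among the restricted rats, and the other isoproterenol rats lay above all of them. Its log2 fold change was -1.79 (SE 0.54, 95% interval -2.87 to -0.72, limma adjusted p = 0.204), and DESeq2 gave -2.46 (SE 0.61, adjusted p = 0.00719). It was also the one Gly-GCC fragment among the 22 with a DESeq2 adjusted p that DESeq2 called.

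The Gly-GCC fragments among the 10 most abundant tsRNAs, apart from this one, passed neither by limma nor by DESeq2. The tsRNA with most reads, tRF-Gly-GCC-026, was at 319749, 158386, 101016, 288247 and 226930 CPM in isoproterenol and at 74937, 379970, 142934, 338987 and 112861 CPM in restricted rats. Restricted rats held both the lowest and the highest level. By limma the log2 fold change was -0.22 (SE 0.50, 95% interval -1.23 to 0.79, adjusted p = 0.816), and it turned to 0.081 with scaling to the listed sum and also without restricted replicate 1. tRF-Gly-GCC-015 was at -1.06 (SE 0.48, 95% interval -2.03 to -0.082, limma adjusted p = 0.272), tRF-Gly-GCC-025 at -0.65 (SE 0.51) and tRF-Gly-GCC-027 at 0.39 (SE 0.51), the last turning to -0.18 by edgeR with TMM and -0.32 by DESeq2.

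Fragments of the glycine parent Gly-CCC made up 4 of the 28 lower DESeq2 calls, which are 4 of the 10 Gly-CCC fragments with a DESeq2 adjusted p (all tsRNAs 5.87%). They also made up 3 of the 12 lower tsRNAs with the smallest limma p, out of 19 tested. tRF-Gly-CCC-010 was at 2172, 453, 528, 3150 and 606 CPM in isoproterenol and at 85.5, 506, 441, 445 and 234 CPM in restricted rats. The tiRNA of this parent, tiRNA-Gly-CCC-001, was at 505, 156, 113, 73 and 83.6 CPM in isoproterenol and at 18.3, 30.2, 85.6, 32.6 and 40.5 CPM in restricted rats. The groups overlapped by 1 restricted rat in each case, and the highest isoproterenol levels came from replicates 4 and 1. Their log2 fold changes were -1.79 (SE 0.58) and -1.92 (SE 0.63), each at a limma adjusted p of 0.204. DESeq2 gave -2.49 (SE 0.72, adjusted p = 0.0126) and -2.62 (SE 0.73, adjusted p = 0.0093), and the fit with the log2 total gave limma adjusted p of 0.0377 and 0.0301.

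The glutamine tiRNA, tiRNA-Gln-CTG-002, was at 81.7, 31.3, 18.9, 54.8 and 97.2 CPM in isoproterenol and at 0, 10.1, 27, 25.3 and 4.5 CPM in restricted rats. Only the lowest isoproterenol rat fell inside the restricted range. The fitted log2 fold change was -2.53 (SE 0.80, limma adjusted p = 0.204), DESeq2 gave -2.74 (SE 0.76, adjusted p = 0.0093) and the fit with the log2 total -2.58 (SE 0.76, limma adjusted p = 0.0449). The histidine tiRNA, tiRNA-His-GTG-001, was at 1065, 781, 1056, 1175 and 2116 CPM in isoproterenol and at 378, 410, 599, 355 and 391 CPM in restricted rats, with no overlap. It had the smallest adjusted p of DESeq2, at -2.16 (SE 0.49, adjusted p = 0.00424), against -1.48 (SE 0.55, adjusted p = 0.226) by limma.

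The lysine fragment tRF-Lys-CTT-026 was at 14.8, 15.6, 37.7, 60.9 and 71.9 CPM in isoproterenol and at 0, 7.55, 31.5, 7.24 and 0 CPM in restricted rats. Restricted replicate 3 alone lay within the isoproterenol range. On the log2 scale the difference was -2.86 (SE 0.90, limma adjusted p = 0.204), the lowest of all 707. The remaining members of the 12 lower with the smallest p were tRF-Gly-CCC-019, tRF-Glu-CTC-026, tRF-Gln-TTG-051, tRF-Ala-TGC-046, tRF-Leu-TAA-019 and tRF-His-GTG-012, with log2 fold changes from -2.60 to -1.56. tRF-Ala-TGC-046 rested on 22 reads against 3, a pooled ratio of 6.98 (exact 95% counting interval 2.1 to 36.4).

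**Figure D2:**
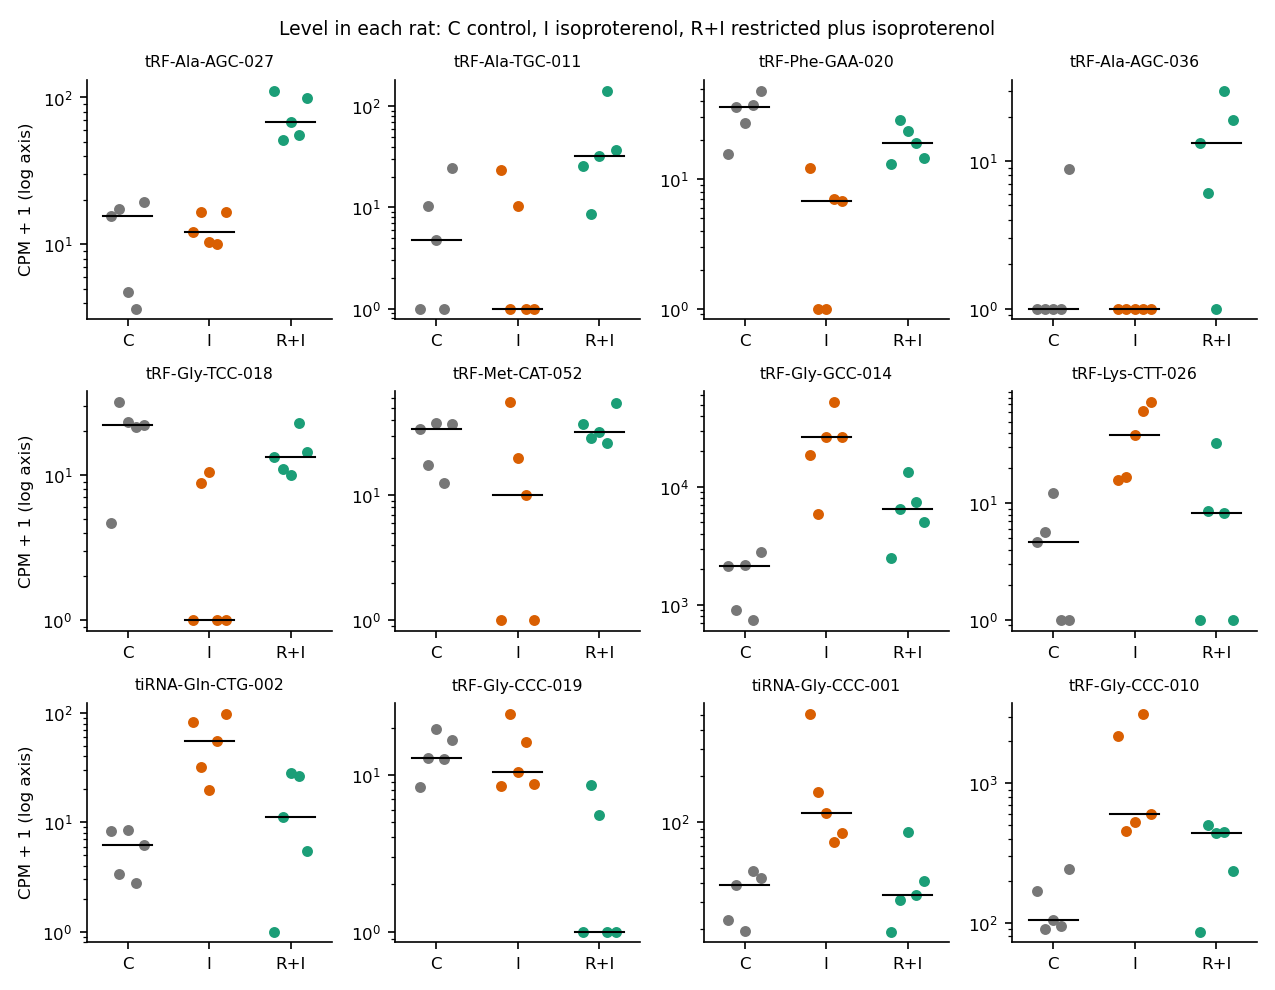
Points are single rats, bars are group medians, and the axis is CPM + 1 on a log scale, for the 6 tsRNAs of smallest p on the higher side (tRF-Ala-AGC-027 to tRF-Met-CAT-052) and the 6 of smallest p among those lower (tRF-Gly-GCC-014 to tRF-Gly-CCC-010). For tRF-Ala-AGC-027 the 5 restricted rats, at 50.3 to 110 CPM, lie above the isoproterenol rats at 9.13 to 15.6 CPM, while most other panels overlap.

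The groups did not overlap for 12 of the 707 tsRNAs (1.7%). The restricted rats lay above for 7 (0.99%), namely tRF-Ala-AGC-027, tRF-Phe-GAA-018, tRF-Phe-GAA-020, tRF-Gly-GCC-003, tRF-Leu-TAG-016, tRF-His-GTG-021 and tRF-Ser-TGA-022. They lay below for 5 (0.707%), namely tiRNA-His-GTG-001, tiRNA-Val-TAC-001, tRF-Val-CAC-020, tRF-Val-CAC-025 and tRF-Glu-CTC-026. tRF-Gly-GCC-003, tRF-Leu-TAG-016, tRF-Ser-TGA-022 and tiRNA-Val-TAC-001 are named because their groups did not overlap, which was seen in their values. A tsRNA had 0 reads throughout the isoproterenol group but some in the restricted group in 6 cases, and the reverse held in 2, with at most 16 reads in the other group.

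The 34 DESeq2 calls were 6 higher (1.26%) and 28 lower (5.87%) of 477 tsRNAs. Histidine His-GTG, valine Val-CAC and glycine Gly-CCC fragments made up 16 of the 28 lower calls. Those of His-GTG were tiRNA-His-GTG-001 and tRF-His-GTG-012, tRF-His-GTG-013, tRF-His-GTG-014, tRF-His-GTG-016 and tRF-His-GTG-017, which are 6 of the 23 fragments of this parent with a DESeq2 adjusted p. Those of Val-CAC were tiRNA-Val-CAC-002 and tRF-Val-CAC-020, tRF-Val-CAC-022, tRF-Val-CAC-023, tRF-Val-CAC-025 and tRF-Val-CAC-050, 6 of 22. Those of Gly-CCC, 4 of 10, were tiRNA-Gly-CCC-001 and tRF-Gly-CCC-009, tRF-Gly-CCC-010 and tRF-Gly-CCC-011. Of the 34 calls, 25 also had a limma p under 0.05 before adjustment. The 6 higher calls were the alanine fragment tRF-Ala-AGC-027, the leucine fragments tRF-Leu-TAG-003, tRF-Leu-TAG-014 and tRF-Leu-CAG-023, the threonine fragment tRF-Thr-TGT-004 and the histidine fragment tRF-His-GTG-021.

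Single libraries carried part of these calls. Isoproterenol replicate 5 was the highest of the 10 libraries for 13 of the 28 lower calls (46.4%), against 9.9% of all 707 tsRNAs. Without it DESeq2 called 8 tsRNAs, all of them among the 34, and without isoproterenol replicate 3 it called 76, of which 31 were among the 34. Without isoproterenol replicate 1 and without restricted replicates 1 and 5 it called 22, 20 and 22. With the authors' totals as size factors, DESeq2 called 8, 1 higher and 7 lower. The clearest case was tRF-His-GTG-017, the one edgeR call (log2 fold change -3.27, edgeR adjusted p = 0.0414). It was at 22.3, 54.7, 0, 12.2 and 678 CPM in isoproterenol and at 6.1, 12.6, 18, 25.3 and 18 CPM in restricted rats. Apart from the 1 rat at 678 CPM, the isoproterenol rats lay between 0 and 54.7 CPM and the restricted rats within that range. By limma the log2 fold change of tRF-His-GTG-017 was -0.73 (SE 0.87, limma adjusted p = 0.663) with all rats and 0.45 without that rat.

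With the log2 library total in the model, 37 tsRNAs (5.23% of 707) were called higher and 6 (0.849%) lower. The median standard error of a fold change was 0.62 in that fit and 0.75 without the covariate. This count rested on single libraries too. It was 1 without restricted replicate 4, 7 without restricted replicate 1, 12 without restricted replicate 2, 24 without isoproterenol replicate 1, 27 without restricted replicate 5 and 69 without restricted replicate 3. Both this fit and DESeq2 called 10 tsRNAs, which are 10 of 34 and 10 of 43. They comprised all 6 higher DESeq2 calls and the lower calls tiRNA-Gln-CTG-002, tiRNA-Gly-CCC-001, tRF-Gly-CCC-010 and tRF-Val-CAC-025. tRF-Val-CAC-025 was at 542, 633, 1574, 809 and 1955 CPM in isoproterenol and at 458, 337, 302, 481 and 477 CPM in restricted rats, with no overlap. Its log2 fold change was -1.26 (SE 0.50) by limma at an adjusted p of 0.237, and -1.97 (SE 0.52) by DESeq2 at an adjusted p of 0.00719.

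**Figure D3:**
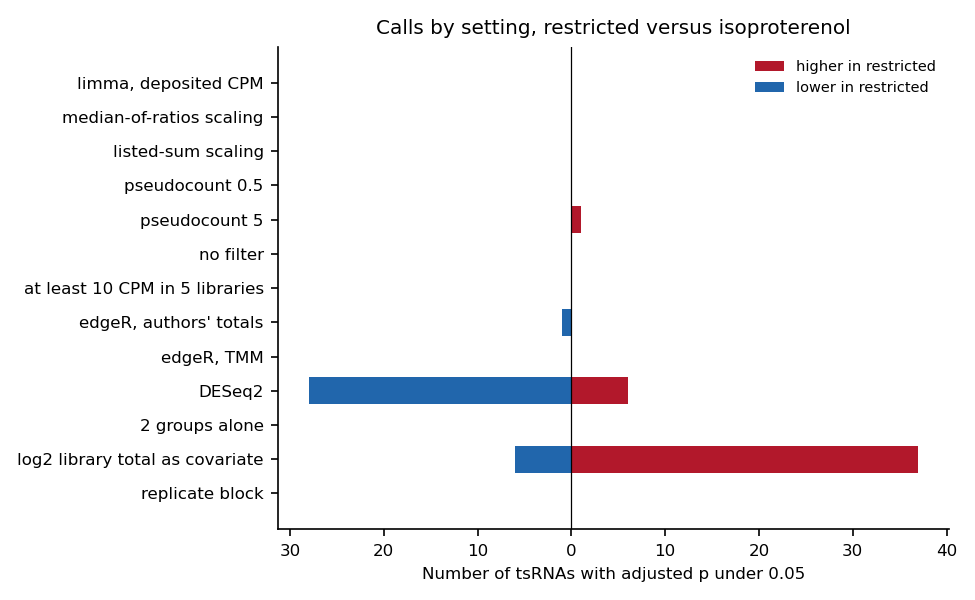
Bars give the number of tsRNAs with an adjusted p under 0.05 in restricted against isoproterenol rats under each setting, to the right where higher and to the left where lower. Most settings called 0 or 1; DESeq2 called 28 lower and 6 higher, and the log2 total as a covariate 37 higher and 6 lower.

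The tsRNAs were also grouped by parent tRNA. None of the parents had a member past the limma threshold, so each is described by its counts at an unadjusted p under 0.05, by its members above 0 and by its median, beside 16.4%, 66.2% and 0.44 for all tsRNAs. All 12 phenylalanine Phe-GAA members were above 0, with a median of 1.25, and 4 of them had a p under 0.05. All 11 Leu-TAG members were above 0, with a median of 1.16 and 3 under 0.05, and 22 of 23 Ala-AGC members, with a median of 0.98 and 5 under 0.05. With median-of-ratios scaling these medians were 0.83, 0.85 and 0.61, and 2, 3 and 4 members had a p under 0.05, all higher. Of 19 Ser-GCT members, 17 were above 0 and 4 had a p under 0.05, all higher, but with median-of-ratios scaling 0 were higher and 1 lower. The one of smallest p, tRF-Ser-GCT-034, was at 11.1, 266, 123, 48.7 and 120 CPM in isoproterenol and at 244, 470, 104, 235 and 234 CPM in restricted rats, overlapping groups (log2 fold change 1.62, SE 0.60, limma adjusted p = 0.226).

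Other parents lay on the lower side or were mixed. Of 18 lysine Lys-CTT members only 4 were above 0, with a median of -0.96, and 2 lower and 2 higher members had a p under 0.05. Val-CAC had a median of -0.28 over 27 members, with 6 lower and 1 higher under 0.05. The glutamate parents Glu-CTC and Glu-TTC had medians of -0.36 over 16 and -0.29 over 27 members, with 1 lower and 1 higher under 0.05 for Glu-CTC and 0 of 27 for Glu-TTC. His-GTG was split, with 6 higher and 4 lower under 0.05 among 30 members and a median of 0.57. Gly-CCC was split as well, with 2 higher and 5 lower among 19, as was Ala-TGC, with 5 higher and 2 lower among 28. Gly-GCC had 5 higher and 2 lower among 35. With median-of-ratios scaling the higher and lower counts were 2 and 6 for Lys-CTT, 2 and 10 for Val-CAC, 1 and 2 for Glu-CTC, and 0 and 5 for Glu-TTC. They were 4 and 7 for His-GTG, 2 and 6 for Gly-CCC, 5 and 3 for Ala-TGC, and 1 and 2 for Gly-GCC, so the balance of His-GTG and Gly-GCC turned.

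Both classes of fragment moved with the scaling, and a difference between the classes was not tested. Of 49 tiRNAs, 6 higher and 6 lower had a p under 0.05, and their median was -0.40. With median-of-ratios scaling 2 were higher and 12 lower, and the median was -0.78. Of 658 tRFs, 72 higher and 32 lower had a p under 0.05, with a median of 0.45, and with median-of-ratios scaling 44 were higher and 66 lower, with a median of 0.12. DESeq2 called 6 of 38 tiRNAs, all lower, and 22 of 439 tRFs lower, against 5.87% of all tsRNAs. The higher tiRNA of smallest p, tiRNA-Tyr-GTA-003, was at 0, 46.9, 47.1, 3.04 and 0 CPM in isoproterenol and at 104, 5.03, 63, 29 and 72 CPM in restricted rats, with groups that overlapped.

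Parents whose anticodons have 0 nuclear tRNA genes in the RefSeq GRCr8 table were tryptophan Trp-TCA and isoleucine Ile-GAT. Both are anticodons of mitochondrial tRNAs. Of their 22 tested tsRNAs, 19 were above 0 and 3 had a p under 0.05, with a median of 0.83. With median-of-ratios scaling the median was 0.48 and 0 had a p under 0.05. DESeq2 called 0 of the 16 with an adjusted p, where it called 7.13% of all tsRNAs. The leading members rested on few reads: tRF-Trp-TCA-005 was at 0 CPM in 4 isoproterenol rats and 36.9 CPM in the fifth, and at 4.5 to 25.3 CPM in all restricted rats. By limma the log2 fold change was 2.33 (SE 0.87, limma adjusted p = 0.226) and turned to -0.52 by DESeq2. That of tRF-Ile-GAT-003 was 1.87 (SE 0.78, limma adjusted p = 0.243) and turned to -0.66 by edgeR with TMM and -0.72 by DESeq2.

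**Figure D4:**
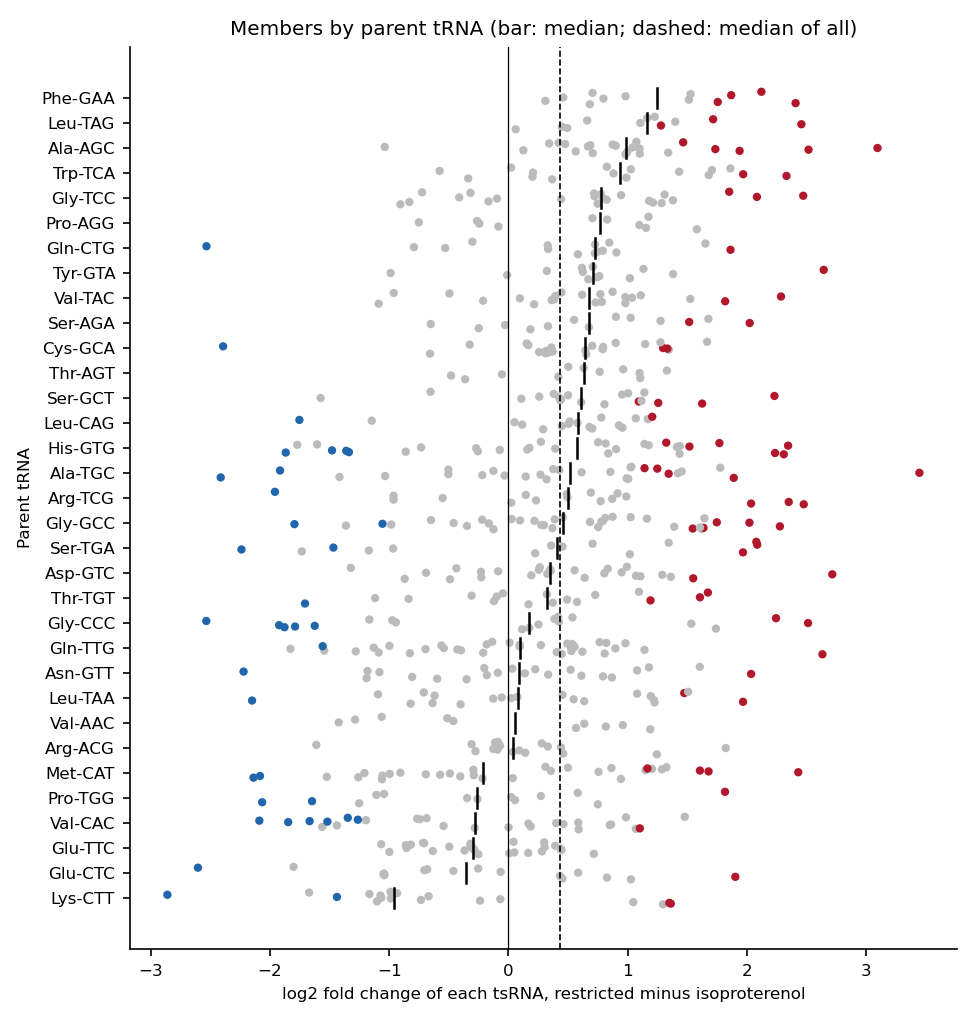
Points are the log2 fold changes of single tsRNAs, restricted minus isoproterenol, for parents with at least 10 tested members, ordered by their median (bar); red and blue mark higher and lower members with an unadjusted limma p under 0.05, and the dashed line is the median of all, 0.44. Phe-GAA (1.25), Leu-TAG (1.16) and Ala-AGC (0.98) lie at one end and Lys-CTT (-0.96) at the other.

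Summing all listed fragments of one parent gives a level that does not depend on how reads were shared among near-identical fragments of that parent. How reads were shared between parents was not examined. Of 46 such isoacceptor totals, 0 (0%) passed by limma (smallest adjusted p 0.187), while 5 (10.9%) were under 0.05 before adjustment, 3 higher (6.52%) and 2 lower (4.35%). The lysine total Lys-CTT was at 17075, 12477, 11218, 27419 and 18866 CPM in isoproterenol and at 5805, 10247, 13042, 7661 and 4825 CPM in restricted rats. Only restricted replicate 3 reached the isoproterenol range. The log2 fold change was -1.09 (SE 0.35, limma adjusted p = 0.187). In the control group the Lys-CTT total was at 6392 CPM ± 881 (SD, n = 5).

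The leucine total Leu-TAG was at 1032, 1641, 2639, 682 and 647 CPM in isoproterenol and at 4047, 1967, 2108, 2891 and 3665 CPM in restricted rats. Isoproterenol replicate 3 alone overlapped the restricted rats. The log2 fold change was 1.30 (SE 0.48, limma adjusted p = 0.268). The Ala-TGC total was at 4362, 5618, 11510, 2961 and 1827 CPM in isoproterenol and at 12630, 6047, 7125, 9583 and 9673 CPM in restricted rats, again overlapping through isoproterenol replicate 3. The fitted log2 fold change was 1.01 (SE 0.44, limma adjusted p = 0.287). Without isoproterenol replicate 3, Lys-CTT, Leu-TAG and Ala-TGC passed, each at a limma adjusted p of 0.033. With median-of-ratios scaling and all rats, Leu-TAG passed at 0.92 (SE 0.21, limma adjusted p = 0.0183).

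The Ser-GCT total averaged 2528 CPM ± 1477 (SD, n = 5) in isoproterenol and 4787 CPM ± 1847 (SD, n = 5) in restricted rats, against 31488 CPM ± 17341 (SD, n = 5) in controls. On the log2 scale the difference was 1.04 (SE 0.41, limma adjusted p = 0.275), and both drug-treated means lay below the control mean. The Arg-CCG total was low, at 21.4 CPM ± 15.4 (SD, n = 5) and 6.44 CPM ± 4.73 (SD, n = 5), at -1.76 on the log2 scale (SE 0.78, limma adjusted p = 0.287). With the log2 total as a covariate 20 of the 46 totals (43.5%) passed, 19 higher (41.3%) and 1 lower (2.17%). The lower one was Lys-CTT at -1.11 (SE 0.29, limma adjusted p = 0.00454) and the higher ones were led by Leu-TAG at 1.40 (SE 0.24, limma adjusted p = 0.00011).

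**Figure D5:**
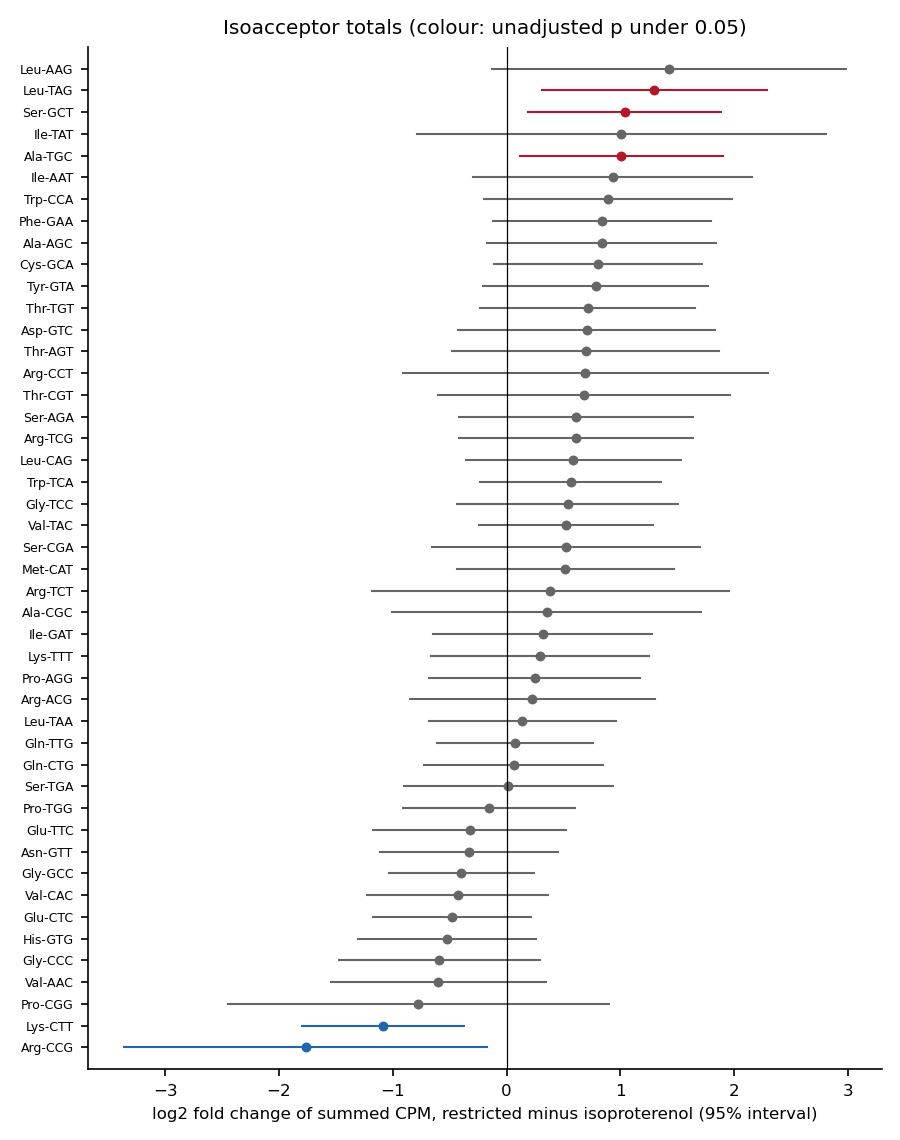
Points are log2 fold changes of the summed CPM of each of the 46 isoacceptors, restricted minus isoproterenol, with 95% intervals from limma; colour marks the 5 with an unadjusted p under 0.05. Leu-TAG (1.30), Ser-GCT (1.04) and Ala-TGC (1.01) are coloured on the higher side, Lys-CTT (-1.09) and Arg-CCG (-1.76) on the lower.

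Shares of the listed reads do not use the library total as divisor. None of the 11 shares tested passed after adjustment by exact permutation of 5 against 5 rats, for which the smallest possible p is 0.00794. A single share at that p would have an adjusted p of 0.0873, so none could pass alone, and 2 shares at the smallest p were needed. Lysine fragments held 2.4%, 2.72%, 2.51%, 3.57% and 3.45% of the listed reads in isoproterenol and 1.89%, 1.58%, 2.96%, 1.37% and 1.54% in restricted rats (exact permutation p = 0.0317, adjusted p = 0.349). The restricted rats were lower but for replicate 3. Glycine fragments held 74.7% ± 10.7 and 70.2% ± 11 (SD, n = 5 each, exact permutation p = 0.524), alanine fragments 1.25% ± 1.1 and 2.54% ± 1.3 (exact permutation p = 0.135), and serine fragments 0.871% ± 0.605 and 1.65% ± 0.584 (exact permutation p = 0.0794). The tiRNA class held 4.42% ± 2.01 and 4.84% ± 2.47 (exact permutation p = 0.722), against 14.5% ± 6.81 in controls.

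All listed tsRNAs together made up 73.6%, 50.6%, 49.4%, 78.7% and 55.4% of the library total in isoproterenol and 38.7%, 67.3%, 47.3%, 61.8% and 37% in restricted rats. The groups overlapped widely (exact permutation p = 0.222), and the control group was at 28.6% ± 4.77 (SD, n = 5). With the reads of tRF-Gly-GCC-026 left out, the other tsRNAs made up 39.7% ± 6.69 of the total in isoproterenol and 29.4% ± 2.82 in restricted rats (SD, n = 5 each, exact permutation p = 0.0159), against 17.8% ± 1.6 in controls. Most tsRNAs were not lower, since 468 of 707 had a log2 fold change above 0. Much of the difference lay in abundant Gly-GCC fragments. Mean levels in isoproterenol and restricted rats were 101368 and 44518.1 CPM for tRF-Gly-GCC-015 and 57047.3 and 36367.8 CPM for tRF-Gly-GCC-025. For tRF-Gly-GCC-014 they were 25976.1 and 6969.96 CPM. tRF-Gly-GCC-027 went the other way, at 33330 and 37526.2 CPM. The number of tsRNAs expected at a common 52454 listed reads was 528.4 ± 72.2 in isoproterenol and 576.6 ± 55.6 in restricted rats (SD, n = 5 each, exact permutation p = 0.254). Without bringing libraries to one depth it was 628.8 ± 12.7 and 651.2 ± 13 (exact permutation p = 0.0317).

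The isoproterenol rats were more spread than the restricted rats, though not beyond the test. Their mean distance to the own group mean over the 707 tsRNAs was 33 ± 6.9 log2 units against 28.3 ± 3 (SD, n = 5 each, exact permutation p = 0.206). The median SD of a tsRNA was 1.21 log2 units in isoproterenol and 0.95 in restricted rats, and 477 of 707 tsRNAs had the larger SD in isoproterenol. These tsRNAs come from the same rats and are not separate evidence. Library totals also ranged more widely in isoproterenol rats, 4.85-fold against 2.43-fold, and their part in the spread was not tested.

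For the leading tsRNAs, the levels relative to control are given beside these values. The comparison of isoproterenol with control shares the isoproterenol libraries with the one above, so a high isoproterenol rat moves both. The fold change of tRF-Gly-GCC-014 was 3.77 on the log2 scale (limma adjusted p = 2.33e-07) in isoproterenol against control. In restricted against control it was 1.98 (limma adjusted p = 0.00208), so its deposited CPM lay above control in both. tiRNA-His-GTG-001 was at 3.27 (limma adjusted p = 5.94e-06) and 1.79 (limma adjusted p = 0.00558), above control in both as well. tRF-Gly-CCC-010 was at 2.94 (limma adjusted p = 7.18e-05) and 1.16 (limma adjusted p = 0.0835), and tiRNA-Gln-CTG-002 at 3.22 (limma adjusted p = 0.00104) and 0.69 (limma adjusted p = 0.456). All levels relative to control, here and below, are on the deposited CPM and were not fitted with another scaling. The median-of-ratios factors, by which levels are divided, had medians of 0.69 in control, 1.05 in isoproterenol and 1.61 in restricted libraries. That scaling would lower the fold changes against control, those of the restricted group most.

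Higher tsRNAs had several patterns. tRF-Ala-AGC-027 was at 0.39 (limma adjusted p = 0.647) in isoproterenol against control and at 2.91 (limma adjusted p = 0.000579) in restricted against control. tRF-Leu-TAG-014 was at 1.18 (limma adjusted p = 0.095) and 2.89 (limma adjusted p = 0.000153). tRF-Phe-GAA-020 was at -3.10 (limma adjusted p = 0.000947) and -0.70 (limma adjusted p = 0.432), and tRF-Gly-TCC-018 at -2.82 (limma adjusted p = 0.00489) and -0.35 (limma adjusted p = 0.729). Passing in one of these comparisons and not in the other does not show a difference between the 2 drug-treated groups, whose direct test is the one given above. Of the 28 lower DESeq2 calls, 27 had an isoproterenol mean above the control mean, as had all 6 higher calls and 545 of all 707 tsRNAs. A restricted mean above the control mean was held by 24 of the 28, and how many of all tsRNAs held one was not counted.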

How the data were processed

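RNA of the left ventricle was pretreated to remove base modifications, and inserts of 14 to 40 nt were sequenced, per the labels' protocols. The authors deposited CPM for 714 tsRNAs in 15 libraries, 1 per rat. Cutadapt and edgeR are named without versions, per the submitters' processing notes. What else the library total holds, and whether reads were capped or collapsed before counting, is unknown, and the sources used here name no aligner or genome build. All deposited CPM were whole multiples of 1 read (100% of values, tolerance 0.001 reads), which gave the totals and the reads. Amplified reads are not independent molecules, so intervals made from them speak of counting error alone. Replicates are separate rats by their titles.

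limma 3.58.1 (eBayes with trend, R 4.3.3) was fitted on log2(CPM + 1). All 15 libraries and the 3 groups entered 1 model, for the 707 tsRNAs that reached 1 CPM in 5 libraries or more. Fold changes are restricted minus isoproterenol on that scale, which understates low tsRNAs and weighs libraries at 0 heavily. Adjusted p-values are Benjamini-Hochberg, two-sided, with a threshold of 0.05. Isoacceptor totals were fitted alike. edgeR 4.0.16 (347 tsRNAs after its filter) and DESeq2 1.42.0 (477 with an adjusted p) were run on the recovered reads. Shares and single values were tested by exact permutation over 252 splits, two-sided. Rats of one compared group differed beyond sampling noise in every pair (chi-square at least 24.4 for each degree of freedom). The limma fit of tsRNAs without a covariate was tested on simulated counts. The edgeR, DESeq2 and covariate fits were not.

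The tsRNAs named were the 12 higher and the 12 lower with the smallest p, the 10 most abundant, those called by edgeR or DESeq2, 2 by name and the one of smallest p for each parent described (74 in all). The members and lists were chosen with earlier results of these data known. Sequences were not used here. Nuclear tRNA genes were counted in the RefSeq GRCr8 table. Alternatives changed the scaling, pseudocount, filter, tool, library total, pairing and libraries. DESeq2 with the authors' totals, and leaving each library out of the DESeq2 and covariate fits, were chosen after seeing the data.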

Additional observations from a re-analysis of the deposited data

Results flagged for a closer look

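Of 98 groups of 5 rats examined, 9 held a rat whose gap to the next, divided by the range of the group, passed Dixon's 95% critical value of 0.71 for 5 samples. Chance passes about 1 in 20 groups of normally distributed values. CPM that rest on few reads are not so distributed, and that rate may not hold here. The rat flagged for tRF-Asp-GTC-059, for example, had 2 reads. In the isoproterenol group the highest rat stood apart for tRF-His-GTG-017 (678 CPM, group median 22.3), tRF-Lys-CTT-023 (18207 CPM, median 5947), tRF-Gln-TTG-051 (2725 CPM, median 867), tiRNA-Gly-CCC-001 (505 CPM, median 113) and tRF-Asp-GTC-059 (18.9 CPM, median 0). In the restricted group the highest rat stood apart for tRF-Glu-CTC-021 (9920 CPM, median 3608), tiRNA-His-GTG-001 (599 CPM, median 391), tRF-Ala-TGC-011 (141 CPM, median 31.5) and tRF-Lys-CTT-026 (31.5 CPM, median 7.24). Their part in the comparisons was examined only by leaving out each rat in turn.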

How the results depend on the processing

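By limma, 0 tsRNAs passed with each rat left out in turn (smallest adjusted p 0.061 to 0.318), with the replicate block (0 passed, smallest adjusted p 0.115), with the 2 groups alone, with no filter, with at least 10 CPM, with a pseudocount of 0.5 and with both other scalings. A pseudocount of 5 gave 1, edgeR with the authors' totals 1, DESeq2 34 and the log2 total as a covariate 43. The count of DESeq2 was 8 with the authors' totals and ranged from 8 to 76 as single rats were left out, and the count with the covariate from 1 to 69. Isoacceptor totals passing numbered 1 (Leu-TAG) with median-of-ratios scaling, 20 with the covariate and 0 to 3 as single rats were left out. The causes were not tested. The labels do not say whether the replicate numbers pair the rats, and same-numbered rats were hardly correlated (-0.0939 to 0.0774). With the block, as without it, 0 tsRNAs and 0 isoacceptor totals passed. Unadjusted p was under 0.05 for 117 tsRNAs and 6 isoacceptor totals, against 116 and 5. The listed share of library total differed by -10.2 points without the most abundant tsRNA, and the number of detected tsRNAs by 22.4 without rarefaction, both then past the threshold. Of 1573 values of the 74 named tsRNAs under alternatives, 13 reversed, in 6 tsRNAs. Listed-sum scaling gave 0.081 for tRF-Gly-GCC-026 and 0.14 for tRF-Gly-GCC-016. tRF-Gly-GCC-027 went to -0.18 and tRF-Ile-GAT-003 to -0.66 with edgeR and TMM, and with DESeq2 these were -0.32 and -0.72 and tRF-Trp-TCA-005 was -0.52. As single rats were left out, tRF-Gly-GCC-026 ranged from -0.50 to 0.081 (highest without restricted replicate 1), tRF-Gly-GCC-016 from -0.49 to 0.17 and tRF-His-GTG-017 from -1.91 to 0.45 (highest without isoproterenol replicate 5). The differences in shares of listed reads ranged from -0.55 to 1.25 points for the tiRNA class, from -1.15 to 0.094 for Glu, from -0.32 to 0.19 for Val and from -0.997 to 0.24 for His, where Glu, Val and His were highest without isoproterenol replicate 3 and the tiRNA class lowest without restricted replicate 1. The share of Val differed by 0.25 points without the most abundant tsRNA. Precision differed with abundance: intervals lay within 2 log2 units for 61% of the 177 most abundant tsRNAs and 7.34% of the 177 least abundant.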
